A study of Caenorhabditis elegans with 2 samples.

Results

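The intervals described here are the peaks of AMA-1, the largest subunit of RNA polymerase II, that were wider than usual in whole young adult Caenorhabditis elegans (strain N2, the wild type). They were chosen by their width alone. In the relaxed peak list that the authors called on the pooled reads of both replicates, 98.34% of 30000 entries were 336 bp wide, and every distinct interval above 336 bp was taken as broad. This gave 102 broad intervals of 29963 distinct intervals, holding 139 entries, each entry with a summit of its own. The series has 1 group, chromatin immunoprecipitated with an antibody to AMA-1 from worms of both sexes pooled, with no treatment labelled and 2 biological replicates, and a relaxed list was also deposited for each replicate. Whole animals were used, so polymerase on a gene in many cells and dense polymerase in few cells cannot be told apart. Read totals are not known for any list.

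RNA polymerase II transcribes protein-coding genes and many non-coding RNA genes, including those of the spliced leader RNAs that worms join to the 5' ends of most messages. A ChIP-seq peak caller draws an interval around each accumulation of reads, and its summit is the point of highest density. Polymerase on a heavily transcribed gene can lie along the whole gene body as well as at its ends, unlike a factor that sits at a single short site.

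Width, number of summits and signal value come from the same reads as the rule. They are given as a description and without a test, as is everything else in the comparison with other intervals, because there is 1 group and neighbouring intervals share a locus. Beside the broad intervals stand 981 distinct intervals of the optimal list, the authors' final list by the irreproducible discovery rate procedure, that were not broad, and the whole pooled list. The 95% Wilson intervals given with shares cover the counting of intervals only.

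The 8 sequences below show what lies under the strongest summit of some of the widest and some of the strongest broad intervals. Each runs 75 bases to either side of the summit, 5' to 3' on the strand of the gene, with annotated exon bases of that gene in capitals, from the RefSeq copy of WBcel235, whose coordinates are those of ce11. They are icl-1 at chrV:727640-727790, minus strand; lgg-1 at chrII:6347430-6347580, minus strand; nurf-1 at chrII:14407469-14407619, plus strand; mak-1 at chrII:8744597-8744747, plus strand; mdt-26 at chrII:5661729-5661879, plus strand; F58G1.7 at chrII:12944669-12944819, minus strand; sls-2.1 at chrII:5844890-5845040, plus strand; and sls-2.2 at chrII:5543622-5543772, plus strand.
icl-1: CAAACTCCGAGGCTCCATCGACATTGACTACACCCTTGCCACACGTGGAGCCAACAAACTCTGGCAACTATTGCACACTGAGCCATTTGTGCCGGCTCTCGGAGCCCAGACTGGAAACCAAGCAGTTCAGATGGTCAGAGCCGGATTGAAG
lgg-1: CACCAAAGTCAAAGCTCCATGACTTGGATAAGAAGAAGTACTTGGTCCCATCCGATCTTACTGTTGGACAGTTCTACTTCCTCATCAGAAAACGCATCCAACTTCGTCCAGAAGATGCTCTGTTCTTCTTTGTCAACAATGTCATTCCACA
nurf-1: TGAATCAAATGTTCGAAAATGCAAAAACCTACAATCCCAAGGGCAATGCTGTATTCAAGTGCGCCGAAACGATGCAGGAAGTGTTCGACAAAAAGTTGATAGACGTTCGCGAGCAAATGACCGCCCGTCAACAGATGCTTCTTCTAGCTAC
mak-1: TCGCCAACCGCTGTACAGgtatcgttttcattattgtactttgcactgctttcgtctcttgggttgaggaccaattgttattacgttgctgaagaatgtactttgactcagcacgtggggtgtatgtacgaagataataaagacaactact
mdt-26: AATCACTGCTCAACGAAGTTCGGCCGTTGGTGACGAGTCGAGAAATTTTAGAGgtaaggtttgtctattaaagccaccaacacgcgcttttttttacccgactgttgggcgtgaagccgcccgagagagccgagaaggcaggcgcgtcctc
F58G1.7: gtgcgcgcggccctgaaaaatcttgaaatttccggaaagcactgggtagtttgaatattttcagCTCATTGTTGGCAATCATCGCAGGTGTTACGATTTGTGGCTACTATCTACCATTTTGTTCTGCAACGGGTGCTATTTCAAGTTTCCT
sls-2.1: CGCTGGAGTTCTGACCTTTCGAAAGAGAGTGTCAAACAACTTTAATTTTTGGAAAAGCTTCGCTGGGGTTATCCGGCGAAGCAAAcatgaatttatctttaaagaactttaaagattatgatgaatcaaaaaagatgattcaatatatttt
sls-2.2: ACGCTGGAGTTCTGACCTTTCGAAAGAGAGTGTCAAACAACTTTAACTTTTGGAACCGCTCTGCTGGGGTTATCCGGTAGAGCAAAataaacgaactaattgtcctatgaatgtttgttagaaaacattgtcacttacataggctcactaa
The windows of icl-1, lgg-1 and nurf-1 are annotated exon from end to end. Those of mak-1, mdt-26 and F58G1.7 cross from exon into intron or back, and the SL2 RNA genes sls-2.1 and sls-2.2 end inside theirs. Laid side by side without gaps, sls-2.1 and sls-2.2 have 102 of 110 gene positions in common. How reads that match several such genes were placed is not given in the sources used here, so the signal at single SL2 RNA genes is uncertain.

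The broad intervals were 338 to 3635 bp wide, with a median of 447.5 bp. Of them, 67 were above 400 bp, 35 above 500 bp, 14 above 1000 bp and 3 above 2000 bp. Just inside the threshold lay intervals of 338 bp at F45D3.10 and F45D3.3 and of 339 bp at suro-1 and at F01D5.10, and the widest interval below the usual width had 335 bp. After joining those that overlapped or touched, 86 regions remained, which held 59666 bp or 0.0595% of the genome. Grouped by locus, with up to 2000 bp between neighbours, the intervals formed 63 groups, and 25 groups with more than 1 interval held 64 of the 102. The 3' part of the kinase gene mnk-1, with the sequence past it, had 5 broad intervals, the region of kin-14 and mstr-1 had 4, and hsp-90 with its neighbour C47E8.11 had 4.

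Broad intervals were among the strongest peaks of the pooled list. All of the 10 strongest distinct intervals were broad, as were 19 of the strongest 20 and 51 of the strongest 100. The other 49 of that 100 were narrower than usual, and 0 had the usual width. The median of the highest signal value, the authors' peak score, was 103 in broad intervals, 50.5 in optimal intervals that were not broad and 10.9 in the whole pooled list. Single values ran from 6.07 at mdh-1 to 486 at sls-2.1. Width and strength did not run in parallel among the members: the widest interval, at icl-1, had a signal value of 149, and the strongest, at sls-2.1, was 476 bp wide.

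**Figure D1:**
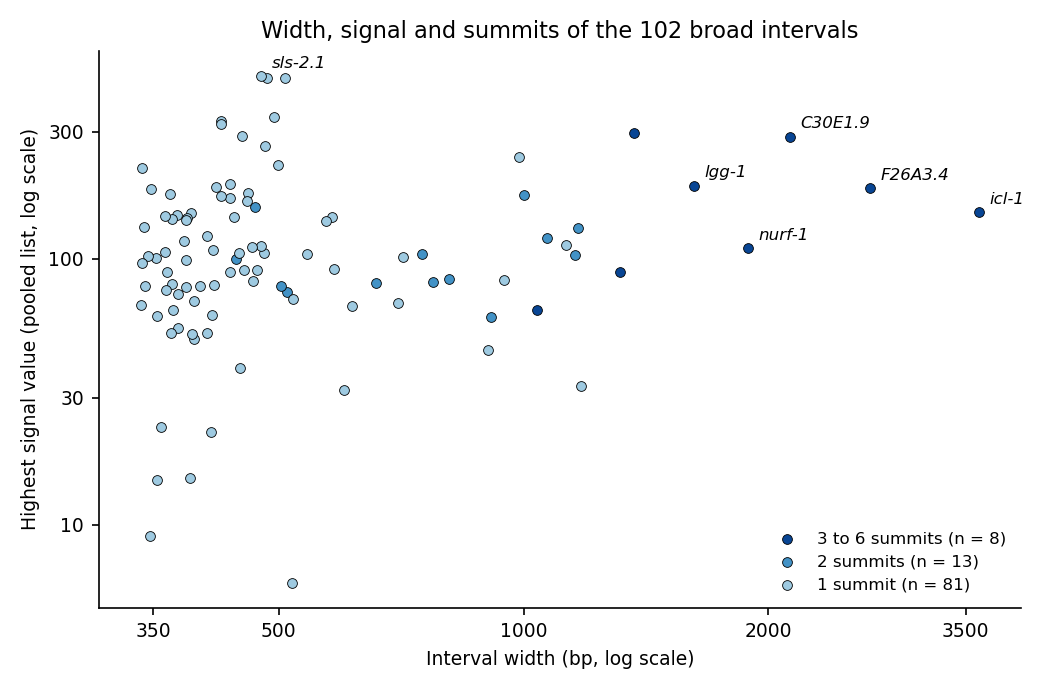
Width (bp, log scale) against the highest signal value in the pooled list (log scale) for each of the 102 broad intervals, coloured by number of summits. Intervals with 3 to 6 summits lie at widths above 1000 bp, and the strongest, at sls-2.1, has 1 summit and 476 bp.

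Most broad intervals held a single summit. Of the 102, 81 had 1 summit, 13 had 2, 4 had 3, 1 had 4, 2 had 5 and 1 had 6. Thus 21 of 102 (20.6%, 95% Wilson interval 13.9 to 29.4) held more than 1, against 0 of 981 optimal intervals that were not broad; over the whole pooled list the share was 0.0701%, all of it broad intervals. The median width was 416 bp with 1 summit, 774 bp with 2 and 1340 bp with 3. More than 1 summit was found in 12 of the 14 intervals above 1000 bp and in 2 of the 67 of 500 bp or less. Both exceptions above 1000 bp had a single summit over a long stretch: the interval of 1128 bp at mnk-1, and that of 1177 bp at adh-1, which shares its start with one of 1168 bp that has 2 summits. Neighbouring summits within an interval were 200 to 874 bp apart, with a median of 430 bp over 37 gaps.

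The widest broad interval covered most of icl-1, which encodes the enzyme of the glyoxylate cycle that lets worms make sugar from fat. It ran from 724432 to 728066 on chromosome V, over 3635 bp, and with the adjoining interval of 572 bp, which reaches the neighbour fbxb-72, covered 100% of the 3673 bp gene. Its 6 summits, read from the 5' end of this minus-strand gene, had signal values of 6.78, 149, 47.9, 29.0, 87.5 and 89.5. The strongest summit, at 149, thus lay 289 bp from the 5' end, and summits followed through the body to the 3' part. In replicate 2 the gene was covered by an interval of 3566 bp with 7 summits. In replicate 1 the interval was overlapped by 5 separate entries, the widest of 777 bp, which covered 51.6% of it.

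The other intervals with 4 or more summits lay at F26A3.4, C30E1.9 and nurf-1. At F26A3.4, a minus-strand gene, an interval of 2670 bp on chromosome I (7656541 to 7659210) had 5 summits. From 5' to 3' on the gene their signal values were 96.2, 88.2, 132, 78.9 and 184. Only 3 of them lay inside the gene. The strongest lay past its 3' end, within 500 bp upstream of another protein-coding gene. The interval covered all 1314 bp of F26A3.4 and ran beyond both of its ends. The non-coding RNA gene C30E1.9 on chromosome X had an interval of 2128 bp at its 5' end with 4 summits of 234, 156, 288 and 217, which took in 13.6% of its 14770 bp. The strongest entry of the whole replicate 1 list overlapped it, with a summit at 16931001 beside the pooled summit of 288 at 16931013. At nurf-1, which encodes a large subunit of the NURF chromatin remodelling complex, the interval of 1891 bp (chromosome II, 14406318 to 14408208) lay at the 3' end of a gene of 17199 bp. Its 5 summits had signal values of 48.4, 45.0, 110, 59.2 and 43.7, the strongest 16831 bp from the annotated 5' end. No broad interval lay at the 5' end of nurf-1; its 3 broad intervals together covered 13.9% of the gene.

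**Figure D2:**
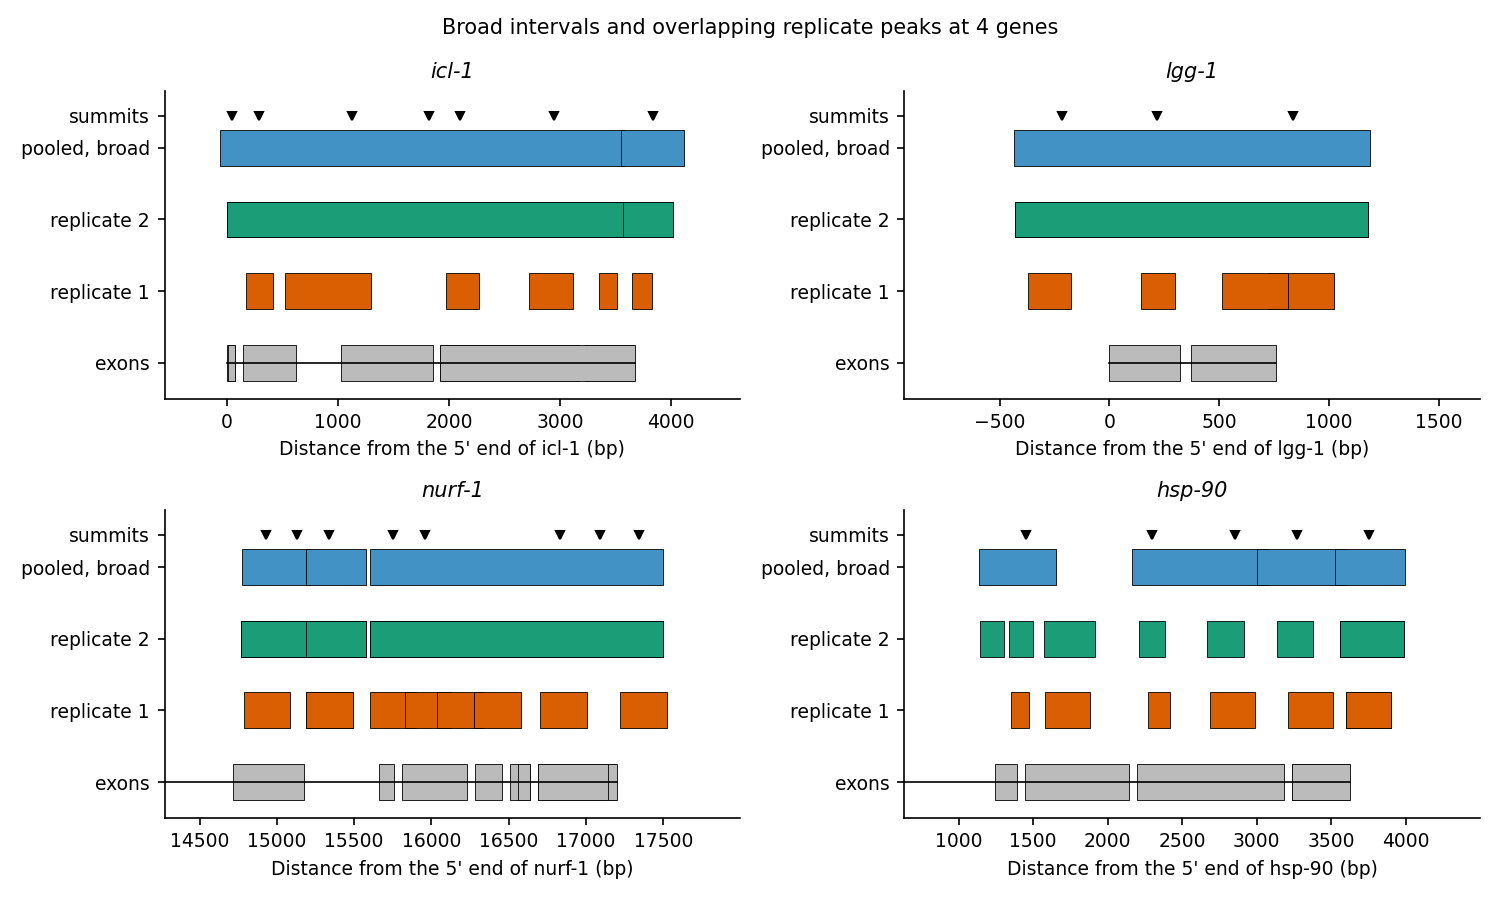
Exons, entries of each replicate that overlap a broad interval, broad pooled intervals and their summits at icl-1, lgg-1, nurf-1 and hsp-90, against the distance from the annotated 5' end (bp). The broad interval spans all of lgg-1, and 2 adjoining ones cover icl-1, while at nurf-1 and hsp-90 the 5' end is left out. Replicate 1 shows separate shorter entries where replicate 2 has long ones, except at hsp-90.

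Nearly all broad intervals shared at least 1 base with an entry of each replicate, and fewer were covered over much of their width. An entry of replicate 1 overlapped 101 of 102 broad intervals (99.0%), against 96.8% of optimal intervals that were not broad and 61.4% of all pooled intervals. For replicate 2 the counts were 102 of 102, against 98.4% and 84.9%. Both replicates overlapped 101 of 102 (95% Wilson interval 94.7 to 99.8), against 95.2% and 50.2%. Both replicates covered at least 50% of the interval in 62.7% of broad intervals, and both had a summit within 100 bp of one of its summits in 80.4%. The exception by any overlap was an interval of 368 bp in the 3' part of C06B3.6 (chromosome V, 13908126 to 13908493, signal value 52.6), covered in full by replicate 2 and not at all by replicate 1. Because the pooled list was called on the reads of both replicates, this overlap is not independent of how the members were chosen. A wider interval also meets an entry more readily by its width alone.

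The width itself was shared far less often between the replicates. The usual width was 304 bp in replicate 1 and 340 bp in replicate 2. An entry wider than that overlapped 9 of 102 broad intervals (8.82%) in replicate 1 and 64 (62.7%) in replicate 2, with 7 wide in both and 36 in neither. By width in the pooled list, replicate 2 was wide at 16 of the 35 intervals up to 400 bp, at 23 of 32 from there to 500 bp, at 14 of 21 to 1000 bp and at 11 of 14 above 1000 bp; replicate 1 was wide at 0, 1, 2 and 6 of them. Among optimal intervals that were not broad, 0 met a wide entry in replicate 1 and 2 did in replicate 2. The widest overlapping entry of replicate 1 had the usual width at 67 broad intervals and was narrower at 25. In replicate 2 it had the usual width at 5 and was narrower at 33. Replicate 1 covered 61.1% of the bases in broad intervals and replicate 2 82.7%.

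Each replicate's own wide intervals lay almost entirely at the same places. Replicate 1 had 12 of them, all overlapping a broad pooled interval, at F26A3.4, C30E1.9, adh-1, icl-1, tts-1, sls-2.4, T28F4.4 with T28F4.5, and mdt-26. The widest, at F26A3.4, had 1154 bp, and 3 of the 12 held more than 1 summit. Replicate 2 had 71, of which 70 overlapped a broad pooled interval and 17 held more than 1 summit. The remaining one, of 355 bp, lay at the start of ttr-15, a gene that has a broad pooled interval of 376 bp in its 3' part. Both replicates ranked the members high, by the best of the overlapping entries. Its median rank was 104 in replicate 1 and 89 in replicate 2, against 1036 and 600 for optimal intervals that were not broad. More than 1 entry overlapped 44.1% of broad intervals in each replicate, against 24.3% and 31.3%. A wider interval meets more entries by its width alone, and its best rank is then taken from more of them. The part of width in these differences was not tested. Broad intervals were also stronger in the pooled list, which was called on the same reads. The ranks are thus not independent of how the members were chosen.

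**Figure D3:**
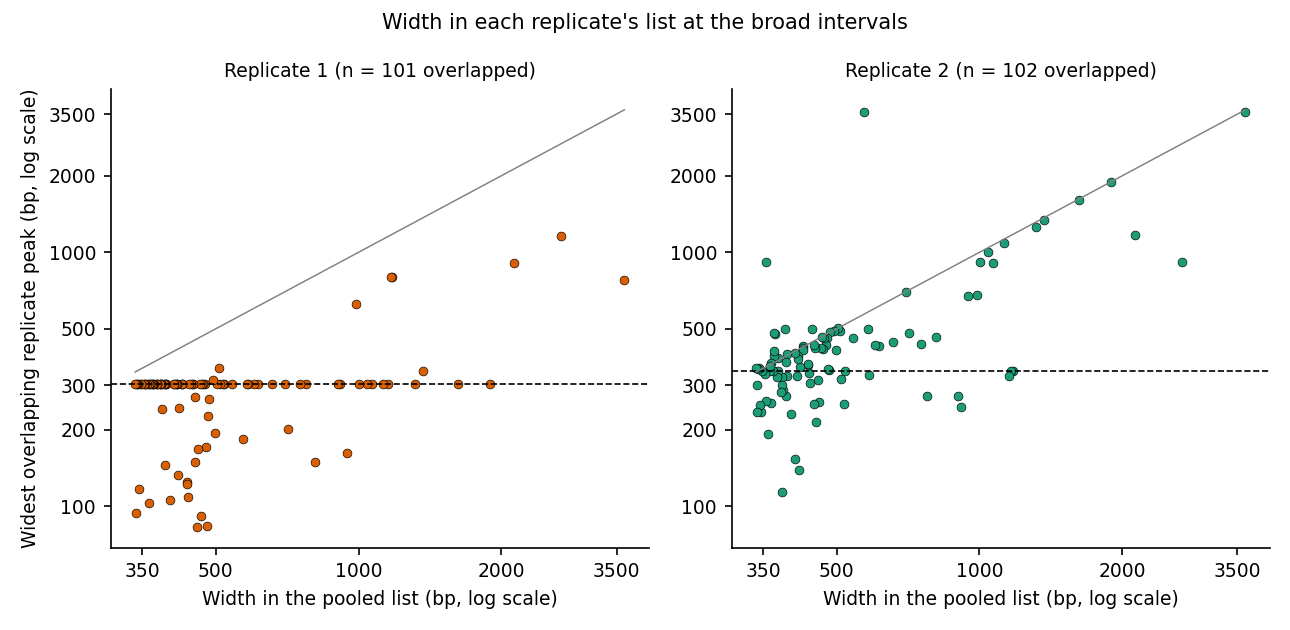
Width of each broad interval in the pooled list (bp, log scale) against the widest entry that overlaps it in replicate 1 (left) and replicate 2 (right), both on log scales; the dashed line is that replicate's usual width and the grey line marks equal width. Most points of replicate 1 lie on 304 bp, while 64 points of replicate 2 lie above 340 bp.

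Of the 102 broad intervals, 93 were in the optimal list (91.2%, 95% Wilson interval 84.1 to 95.3), against 3.58% of all distinct pooled intervals; the optimal list is the strongest part of the pooled list, so this share follows signal strength. The 9 others were at adh-1, hsp-90, mdh-1 (2 intervals), mnk-1, nurf-1, F22B7.9, mstr-1 and suro-1. At adh-1, mnk-1 and suro-1 such an interval shared its start with an optimal broad interval and differed from it by at most 20 bases in its end. Signal was lowest at mdh-1, where an interval of 519 bp ranked 27409 in the pooled list with a signal value of 6.07, and shared its start with one of 448 bp with a signal value of 38.7.

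A protein-coding gene body was touched by 85 of 102 broad intervals (83.3%, 95% Wilson interval 74.9 to 89.3), against 71.2% of optimal intervals that were not broad and 76.1% of all pooled intervals. A wider interval meets more genes by its width alone. In a fixed window of 300 bp around the strongest summit the shares were 76.5%, 71.6% and 75.4%, and the difference was within the counting interval of the broad intervals. More than 1 protein-coding gene was touched by 12 broad intervals (11.8%), against 10.3% and 6.29%; 10 touched 2 and 2 touched 3. The broad interval of 467 bp at ant-1.1, which encodes a mitochondrial ADP/ATP carrier, reached cdk-5 and kel-3 as well. Only 4 of 102 (3.92%, 95% Wilson interval 1.54 to 9.65) touched no annotated gene other than piRNA genes, against 22.02% of optimal intervals that were not broad and 20.6% of all.

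Together the broad intervals touched 69 of 19973 protein-coding genes (0.345%), and 20 of these were touched by more than 1. The optimal intervals that were not broad touched 598 (2.99%). Of the 69 genes, 17 were covered over at least 50% of the body, 10 over at least 90% and 22 over less than 10%, and the median was 17.9%. Their median length was 1922 bp, against 2027 bp for all protein-coding genes. The reads carry no strand, and 32 of the 69 overlap another annotated gene, so the gene behind an interval is uncertain there.

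**Figure D4:**
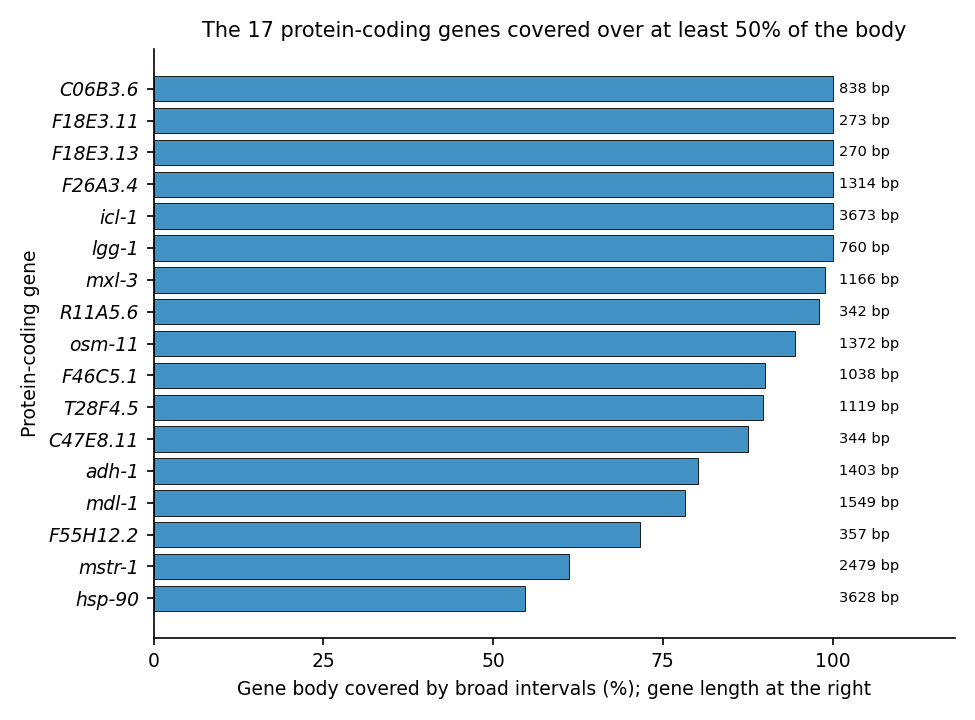
Percent of the gene body covered by broad intervals for the 17 protein-coding genes covered over at least 50%, with the length of each gene at the right. Among them 6 genes reach 100%, from F18E3.13 with 270 bp to icl-1 with 3673 bp, and hsp-90 stands at 54.7%.

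Genes outside the 10 widest, the 10 strongest and the 5 intervals with most summits are named from here on by their role, chosen after their values were seen. Among metabolic enzymes, adh-1, which encodes an alcohol dehydrogenase, was covered over 80.1% of 1403 bp by a pair of nested intervals of 1177 and 1168 bp. Replicate 1 covered 99.3% of each, with a wide entry of 803 bp. Replicate 2 covered 44.4% and 44.0% of them and had no wide entry there. The gene mdh-1, for malate dehydrogenase, was touched by 3 broad intervals around its ends that covered 28.8% of the body. The strongest, with a signal value of 172, had its summit in a 5' UTR of the neighbour dpy-11 and only reached the 3' end of mdh-1. The others, of 448 and 519 bp, shared a start and lay over the 5' end. Their signal values were 38.7 and 6.07, and neither was in the optimal list. At acs-2, which encodes an acyl-CoA synthetase of fatty acid oxidation, an interval of 810 bp with 2 summits covered 25.1% of the gene at its 5' part. The interval of 541 bp inside pck-2, for a phosphoenolpyruvate carboxykinase, also contained nearly all of the small gene R11A5.6 within it, 98.0% of 342 bp. Trehalose synthesis was represented by tps-2, whose interval of 465 bp lay at the 5' end with its summit 145 bp from it.

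Several genes of transcription and chromatin were covered over most or a small part of the body. The Max-like factor gene mxl-3 was covered over 98.9% of 1166 bp by 3 intervals with 4 summits. Those of 903 and 774 bp were nested, with the same start. The weakest summit had a signal value of 5.43 and ranked 29749 in the pooled list. Replicate 1 covered 44.9% and 51.7% of the nested intervals, and replicate 2 30.2% and 35.3%. Neither replicate had a wide entry at mxl-3. Another gene of the same broad family, mdl-1, for a Mad-like factor, was covered over 78.2% of 1549 bp, and the strongest summit of its intervals, 119.4 in signal value, lay past the annotated 3' end, inside the ncRNA gene R03E9.10, so the gene behind it is uncertain. The Mediator subunit gene mdt-26 had 2 broad intervals at its 5' part, with signal values of 341 and 289, 493 and 451 bp wide, that covered 20.6% of 4063 bp; the summit of the second also lay within 500 bp upstream of another protein-coding gene. In replicate 1 the stronger of them met an entry of 315 bp with rank 2 in that list, and in replicate 2 one of 492 bp with rank 8. At pcf-11, for a factor of cleavage and termination of messages, an interval of 384 bp lay at the 5' end, and at xbp-1, for a transcription factor of the unfolded protein response, one of 369 bp lay at the 3' end.

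Kinase genes with several broad intervals were mak-1 and mnk-1, both of the family activated by or bound to MAP kinases. The intervals at mak-1 were 1156, 440 and 391 bp wide and lay at the 5' end, past the 3' end and between them, with highest signal values of 104, 144 and 52.1. Replicate 1 covered 45.4% and replicate 2 48.4% of the widest one, and neither had a wide entry there. At mnk-1, a gene of 12624 bp, the touching intervals were 5. The widest, 1128 bp with a signal value of 113, had its summit 12188 bp from the 5' end. That summit also lay inside an ncRNA gene of 1791 bp on the same strand, which 3 broad intervals touched. They covered 86.0% of the ncRNA gene, while broad intervals covered 18.2% of mnk-1, so the gene behind these 3 is uncertain. Another interval at mnk-1, 345 bp wide with a signal value of 102, lay in a 5' UTR annotated near the middle of mnk-1. The gene osm-11, for a secreted ligand that acts with Notch, was covered over 94.5% of 1372 bp by intervals of 1040 and 581 bp with 4 summits in all.

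Genes of protein folding and turnover formed another set. The chaperone gene hsp-90 had 4 broad intervals of 475 to 912 bp, none of them at its 5' end, that covered 54.7% of 3628 bp. Their signal values were 70.5, 60.3, 32.0 and 111 from 5' to 3', and the last reached into C47E8.11, past the 3' end. Replicate 1 met these 4 intervals with entries of at most 304 bp, its usual width, and replicate 2 met the 2 at the 3' end with an entry of 431 bp. At hsp-1, for a constitutive Hsp70 chaperone, an interval of 499 bp with a signal value of 224 lay over the 3' end and reached nra-1. The autophagy gene lgg-1, an Atg8 family member, was spanned whole by an interval of 1619 bp with summits of 97.6, 188 and 144 from 5' to 3', which began and ended outside the 760 bp gene. In replicate 2 lgg-1 was spanned likewise, by 1610 bp, and in replicate 1 the interval was met by 4 entries of at most 304 bp. An interval of 415 bp spanned the neighbouring ends of atg-7, for an enzyme of autophagy, and let-70, for a ubiquitin-conjugating enzyme, and ubq-1, for polyubiquitin, had one of 363 bp inside the gene.

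Some of the widest intervals lay at genes for which no role is given here. At T28F4.4 and T28F4.5, which overlap, an interval of 1366 bp had 3 summits and a signal value of 296, and covered 89.7% of T28F4.5. The interval of 1314 bp at F46C5.1 and the long non-coding RNA gene linc-72 had 3 summits and a highest signal value of 89.3. At tos-1, intervals of 947 and 481 bp at the 5' part had signal values of 83.5 and 266. The interval of 424 bp at F58G1.7, with a signal value of 330, contained the small nuclear RNA gene sup-6 whole, so the gene behind it is uncertain.

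The broad intervals touched 44 genes of non-coding RNA other than piRNAs. Among them were 28 of the 7764 annotated genes of the class ncRNA, beside 69 of 19973 protein-coding genes (0.345%). The others included 8 of 129 small nuclear RNA genes, 4 of 346 small nucleolar RNA genes and 2 of 261 microRNA genes. The 3 highest signal values of the list were those at sls-2.1, sls-2.4 and sls-2.2, 486, 479 and 477, in intervals of 476, 509 and 483 bp that each contained the whole gene of 110 bp and had 1 summit. At sls-2.4 the summit lay past the 3' end of the gene, 135 bp from its 5' end, and the interval also reached the protein-coding gene R12E2.11. The genes sls-2.4 and sls-2.2 each overlap an ncRNA gene on the other strand, which cannot be told apart from them here. In replicate 2 these intervals met entries of 459, 488 and 485 bp, all wider than usual, and in replicate 1 entries of 171, 352 and 265 bp, of which that at sls-2.4 was wider than usual and the others narrower. The interval of 988 bp at tts-1, a long non-coding RNA known for its abundance in long-lived and dauer worms, contained the whole gene of 711 bp, had 1 summit with a signal value of 242, and was wide in both replicates, with 624 bp in replicate 1 and 681 bp in replicate 2. An interval of 424 bp with a signal value of 321 contained the microRNA gene cel-mir-52 and the ncRNA gene Y37A1B.335 and overlapped Y37A1B.330 and Y37A1B.333. The ncRNA gene W05H9.3 on chromosome X had 3 broad intervals, of 408 to 418 bp, which covered 53.5% of its 1512 bp.

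Of 17 gene lists, members were touched by broad intervals in 2. Among heat shock proteins and chaperones these were hsp-90, hsp-1 and hsp-12.3. They were 3 of 31 genes (9.68%, 95% Wilson interval 3.35 to 24.9), beside 0.345% of all protein-coding genes. Only at hsp-90 did summits of broad intervals lie inside the gene. At hsp-1 and hsp-12.3 the intervals covered 7.88% and 23.2% of the body, with the summit past the 3' end. That at hsp-12.3 contained the small nuclear RNA gene F38E11.11 and the ncRNA gene F38E11.24 whole. The first of the list that was not touched is cct-1. Among SL2 RNA genes 5 of 18 were touched (27.8%, 95% Wilson interval 12.5 to 50.9), namely sls-2.4, sls-2.2, sls-2.1, sls-2.3 and sls-2.8, beside 8 of the 129 annotated small nuclear RNA genes, among which these 5 are counted; sls-2.10 is the first that was not touched. Optimal intervals that were not broad touched 7 of the 18 (38.9%). Broad intervals touched none of 80 cytosolic ribosomal protein genes such as rla-0, 66 mitochondrial ones such as mrpl-1, 6 elongation factor genes such as eef-1A.1, 19 glycolysis genes such as aldo-1, 176 cuticle collagen genes such as bli-1, 81 histone genes such as hil-1, 6 vitellogenin genes such as vit-1, 12 RNA polymerase II subunit genes such as ama-1, 1369 chemoreceptor genes such as sra-1 and 12 SL1 RNA genes such as sls-1.1. Nor did they touch any of the 8 marker genes each of intestine (act-5), body wall muscle (lev-11), neurons (egl-3), germline (gld-1) and hypodermis (bli-1). Optimal intervals that were not broad, which touched 2.99% of all protein-coding genes, touched 9 of the 31 chaperone genes, 7 of the 19 glycolysis genes, 2 of the 6 elongation factor genes, 1 of the 6 vitellogenin genes and 1 of the 12 polymerase subunit genes. They touched 3 of the 80 cytosolic and 3 of the 66 mitochondrial ribosomal protein genes, 4 of the 81 histone genes, 2 of the 176 collagen genes and 3 of the 1369 chemoreceptor genes. Among the markers they touched 1 of 8 each of intestine and neurons and none of those of body wall muscle, germline and hypodermis, and they touched none of the SL1 RNA genes. For the lists of protein-coding genes with a count of 0, the upper bound of the 95% Wilson interval lies above the 0.345% of all protein-coding genes, except for the chemoreceptors, where it is 0.280%.

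By the position of their strongest summit, broad intervals stood out in non-coding exons and were rare between genes. Non-coding exons held 15 of 102 (14.7%, 95% Wilson interval 9.12 to 22.9), against 3.67% of optimal intervals that were not broad and 2.11% of all pooled intervals. Intergenic sequence, outside non-coding exons and more than 500 bp from any protein-coding gene, held 2 of 102 (1.96%, 0.539 to 6.87), against 12.7% and 15.5%. Introns held 9.80% (5.41 to 17.1), against 16.5% and 30.5%, and 3' UTRs 8.82% (4.71 to 15.9), against 3.67% and 4.90%. Coding sequence held most, 33 of 102 (32.4%), against 29.2% and 26.8%. Promoters, the 500 bp upstream of protein-coding genes, held 16.7%, against 18.5% and 12.8%, the 500 bp downstream 9.80%, against 10.3% and 4.41%, and 5' UTRs 5.88%, against 5.50% and 2.90%. In introns and in the last 4 of these classes the share of optimal intervals that were not broad lay within the counting interval of the broad ones. Broad intervals were also stronger than both sets they are read against, and the part of signal strength in these differences was not tested.

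**Figure D5:**
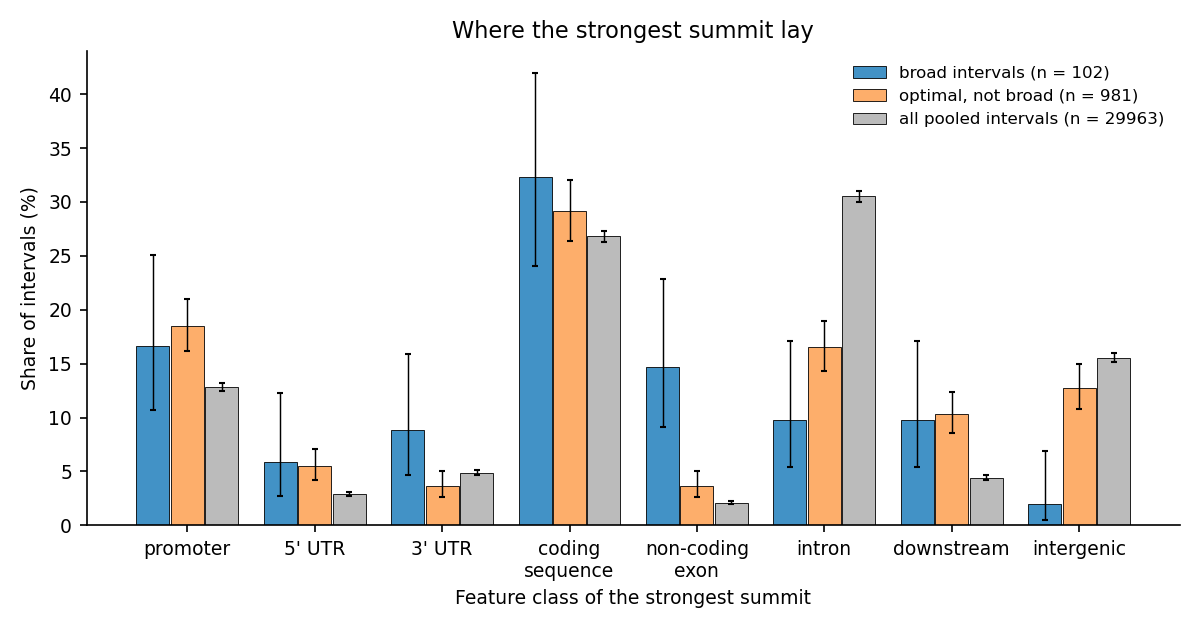
Share of intervals (%) whose strongest summit lay in each feature class, for broad intervals, optimal intervals that were not broad, and all pooled intervals, with 95% Wilson intervals as error bars. The broad bar is above both others in non-coding exons, at 14.7%, and below both in intergenic sequence, at 1.96%.

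In 65 broad intervals the strongest summit lay inside exactly 1 protein-coding gene body. Of these, 22 had it in the first of 4 equal parts, 14 in the second, 7 in the third and 22 in the last. The last part thus held 33.8% (95% Wilson interval 23.5 to 46.0), against 26.7% of 558 such optimal intervals that were not broad and 24.5% of all, and the first part 33.8%, against 37.3% and 30.8%. These 4 shares lay within the counting interval of the broad ones. The second part held 21.5% (13.3 to 33.0), against 20.97% and 23.8%, both within that interval too. The third part held 10.8% (5.32 to 20.6), against 15.1% and 20.95%, and the share of all pooled intervals lay just above that interval. Examples of summits in the first part were those at icl-1, acs-2 and tos-1, and examples in the last part those at nurf-1. At mnk-1 the widest interval had its summit in the last part, while that of 345 bp had it 49.2% along the gene.

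The broad intervals were spread unevenly over the chromosomes. Chromosome V held 27, II 26, I 19, X 15, III 9 and IV 6. Chromosomes V and II thus held 26.5% and 25.5% of the broad intervals, against 20.5% and 17.3% of optimal intervals that were not broad and 15.4% and 16.0% of all pooled intervals, while III and IV held 8.82% and 5.88%, against 20.4% and 14.3% of the optimal ones and 18.6% and 16.4% of all. Several intervals at 1 locus count separately here. The X chromosome held 14.7% (95% Wilson interval 9.12 to 22.9), against 12.7% and 15.6%, both within that interval.

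In base composition the members were close to other strong peaks. The median GC content of the window of 300 bp around the strongest summit was 40.5%, against 39.7% for optimal intervals that were not broad and 37.0% for all. The motif TATAAA, on either strand, was found in 16.7% of the windows, against 24.3% and 26.3%, and the polyadenylation signal AATAAA in 43.1%, against 46.2% and 48.8%. The E-box CACGTG, the site type bound by Myc, Max and Mad family factors, was found in 13 windows (12.7%, 95% Wilson interval 7.60 to 20.6), against 9.99% and 6.66%. It is visible in the icl-1 and mak-1 sequences printed above. The other windows lay at F25E5.8, acs-2, dhgd-1 with dnj-13 and F54D5.7, both intervals of mdl-1, mnk-1, mxl-3, pcf-11, pck-2, tos-1 and xbp-1. The heat shock type motif TTCNNGAA was found in 22.5%, against 19.1% and 19.95%, and GATAAG, the site type of intestinal GATA factors, in 12.7%, against 15.4% and 12.6%. A match describes these letters only; the motifs were searched separately and may overlap. None of the motif shares differed from that of optimal intervals that were not broad beyond the counting interval of the broad ones.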

How the data were processed

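AMA-1 ChIP-seq peak lists of 2 biological replicates were analysed; they are separate biosamples of 1 strain, per the labels. Per the README deposited with each sample, relaxed lists were derived by the authors from alignments of 1 or both replicates and a further file, and the optimal list from the relaxed lists. Neither aligner nor peak caller is given in the sources used here. The deposited signal value, a score of the authors' caller, was used to rank peaks within a list only; the deposited −log10 q-value was at its highest, 4.05, in 5554 pooled entries and could not rank them. Depth is unknown.

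Entries with the same ends were taken as 1 interval; overlap means at least 1 shared base. Genes came from Ensembl release 115 on WBcel235, and positions are 1-based. The genes named by rule were those touched by the 10 widest, the 10 strongest and the 5 most summit-rich intervals, and for each list the 2 members at the widest intervals and the first untouched one. Members and lists were chosen with earlier results of these data known. No significance test was run. The overlap, coverage and summit counts were tested on simulated intervals. Alternatives changed the width threshold, build, overlap, gene definition and replicate. Software was Python 3.11.15, numpy 2.4.6, pandas 2.3.3, scipy 1.17.1 and matplotlib 3.10.9.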

Additional observations from a re-analysis of the deposited data

How the results depend on the processing

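Of 46 alternative values, 30 stayed within the counting interval of the reported value, or within 1.5 times of it for the number of intervals, and 16 did not. Leaving out 1 replicate, with the other's list and usual width alone, gave 12 (without replicate 2) to 71 (without replicate 1) broad intervals. Of these, 66.7% to 76.1% touched a protein-coding gene. Overlap was taken for the 102 broad pooled intervals instead, and 99.0% of them overlapped replicate 1 alone and 100% replicate 2 alone. These 2 values repeat those given above. With 1 replicate left out, the share in the optimal list has no value, because ends in the replicate lists are not those of the optimal list. With widths above 400 bp the share with more than 1 summit was 31.3% and overlap in both replicates 100%; above 500 bp they were 54.3% and 100%, and 91.4% touched a protein-coding gene. With overlapping intervals merged they were 31.4% and 100%, and 97.7% were in the optimal list, as were 97.1% by any overlap. Overlap in both replicates was 62.7% when at least 50% of the interval had to be covered in each, and 80.4% when a replicate summit had to lie within 100 bp of one of its summits. In gene bodies over at least 50% of their length lay 70.6%, and 34.3% touched more than 1 gene of any biotype except piRNA. Build ce10 gave 103 intervals. Cutting the pooled list to its stronger 50% changed none of the 6 values beyond the limits above. No paired analysis was possible because the series has 1 group. Depth is unknown, so what it limits cannot be stated.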

Other observations

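Intervals narrower than usual were the counterpart of the broad ones among strong peaks. The pooled list held 359 of them, 84 to 335 bp wide with a median of 169 bp and a median signal value of 58.3, and all had 1 summit. Broad intervals overlapped both replicates in 99.0% and narrow ones in 89.7%, and 91.2% of broad and 73.5% of narrow ones were in the optimal list. Non-coding exons held the strongest summit of 14.7% of broad and 3.90% of narrow intervals (95% Wilson interval 2.34 to 6.44), and intergenic sequence that of 1.96% of broad and 11.4% of narrow ones (8.53 to 15.1). These are descriptions without a test. The strongest interval of the usual width ranked 117 in the pooled list.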
